A study of Mus musculus with 6 samples.

Results

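The cells described here were ovalbumin-specific CD4 T cells from mouse Peyer's patches that held transcripts of at least 3 of 6 genes of killer-type lymphocytes: Eomes, Nkg7, Crtam, Slamf7, Xcl1 and Ctla2a. They are called Eomes Nkg7 cells below. A cell barcode was kept where it had at least 500 detected genes, at most 10% of its unique molecular identifiers (UMIs, counts of single captured RNA molecules) in mitochondrial genes, at least 1 UMI over Cd3e, Cd3d and Cd3g, and 0 UMIs of Epcam, Krt8 and Cd79a. Of 4803 deposited barcodes, 2887 were kept and 135 of these were Eomes Nkg7 cells: 20 and 8 in mutant libraries 1 and 2, against 75 and 32 in WT libraries 1 and 2. The remaining 2752 kept barcodes are called other kept barcodes. The cells were chosen by measured values of the 6 genes, so the levels of these genes are given as a description only.

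The study compared donor T cells carrying 1 copy of a Tgfbr1 receptor allele with the M318R change (TgfbrIWT/mut, called mutant) with donor T cells of WT genotype, with 2 libraries of each. Donors of both genotypes were OTII+/+RAG-/- mice, whose T cells carry a single transgenic receptor for an ovalbumin peptide, and the cells went by injection into WT mice marked by CD45.1, whose drinking water held 1.5% ovalbumin over 7 days. Peyer's patches were taken on day 8, and cells that were CD45.2+, CD45.1-, CD4+, CD8- and TCRβ+ were sorted and sequenced with a 10x Genomics 3′ kit. The mutation was thus limited to the transferred cells and the hosts were WT. The labels place none of these libraries in the study's rapamycin or peanut experiments, and they do not say how many animals entered a library, so the p-values below measure the spread between libraries, which may be technical. The WT matrices also hold counts of 3 antibody tags and the mutant matrices hold none, so this difference in handling and the genotype cannot be told apart.

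Eomes is a T-box transcription factor that, with its relative T-bet, directs the killing programme of CD8 T cells and natural killer cells. CD4 T cells can acquire parts of that programme, and CRTAM marks activated CD4 T cells that can go on to do so. Most helper cells of Peyer's patches that meet antigen instead become T follicular helper (Tfh) cells, which enter B cell follicles and supply IL-21 and IL-4. TGF-beta signals through the type I receptor encoded by Tgfbr1 to Smad proteins and is known to restrain Eomes and cytotoxic genes in T cells.

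The promoter windows of Nkg7 and Xcl1 are shown because both genes are in the rule and both windows hold the core letters of a T-box site. The search used GGTGTGA on either strand (TCACACC on the reverse). The windows run from 250 bases before the RefSeq start site to 50 bases after it on the mouse GRCm38.p6 build, each is printed along its gene's own strand, and the capitals mark the match. The Nkg7 window is chr7:43436888-43437187 on the plus strand with a match starting at position -13 from the start site, and the Xcl1 window is chr1:164935473-164935772 on the minus strand with a match starting at -188.
Nkg7: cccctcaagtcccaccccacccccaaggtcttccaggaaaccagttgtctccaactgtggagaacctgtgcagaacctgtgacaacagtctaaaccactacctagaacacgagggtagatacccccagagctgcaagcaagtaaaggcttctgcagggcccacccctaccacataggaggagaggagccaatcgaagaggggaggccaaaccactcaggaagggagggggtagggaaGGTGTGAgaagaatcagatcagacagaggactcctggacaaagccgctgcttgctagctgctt
Xcl1: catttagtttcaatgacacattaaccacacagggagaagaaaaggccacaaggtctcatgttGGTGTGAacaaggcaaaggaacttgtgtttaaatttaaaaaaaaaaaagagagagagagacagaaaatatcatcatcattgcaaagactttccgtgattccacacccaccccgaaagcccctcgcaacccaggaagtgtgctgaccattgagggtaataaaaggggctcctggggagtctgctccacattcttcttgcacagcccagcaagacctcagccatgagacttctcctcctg
Of 32851 such windows over all genes, 3.98% hold these letters, and the windows of Eomes, Slamf7 and Ctla2a do not. Crtam had no window to search. A match describes letters in a window and is not evidence of binding.

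The 6 genes were concentrated in a small set of barcodes. Of the kept barcodes, 2506 had none of the 6 genes, 217 had 1, 29 had 2, 46 had 3, 61 had 4, 26 had 5 and 2 had all 6. The number with 4 genes was thus above the number with 2 or 3. The most frequent combination, in 45 cells, was Eomes with Nkg7, Crtam and Slamf7, and the next, in 22 cells, was Eomes with Nkg7 and Slamf7. Eomes was detected in 128 of the 135 cells, Nkg7 in 122, Slamf7 in 122, Crtam in 98, Ctla2a in 28 and Xcl1 in 26.

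**Figure D1:**
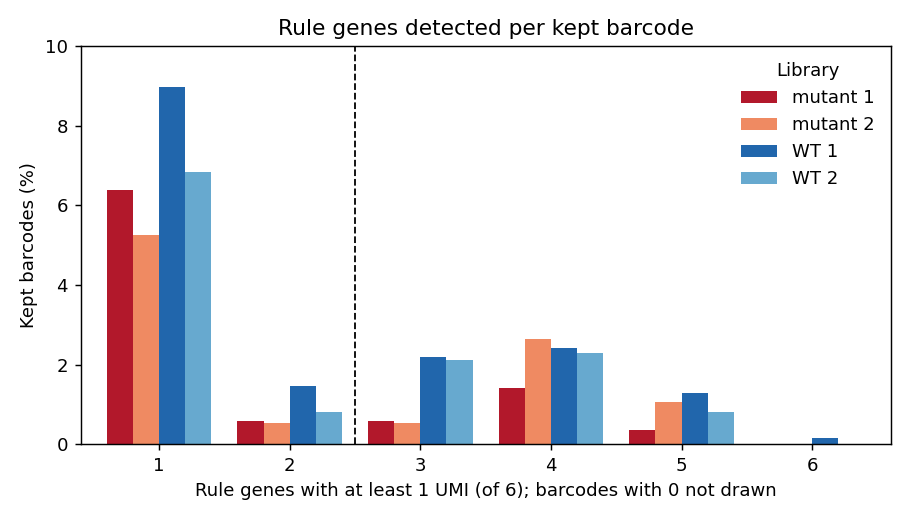
Share of kept barcodes (%) by the number of the 6 rule genes with at least 1 UMI, one bar per library, with the dashed line marking the threshold of 3. Barcodes with none of the genes are not drawn, and 4 genes were more frequent than 2 in each of the 4 libraries.

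Levels are given as CPM, the UMIs of a gene per 1000000 UMIs summed over the cells of a class in a library, and are not corrected for gene length. Eomes stood at 1005 and 946 CPM in mutant Eomes Nkg7 cells and at 625 and 803 CPM in WT ones. Nkg7, a protein of cytotoxic granules, stood at 538 and 634 CPM in mutant cells and at 853 and 994 CPM in WT cells. Neither pair of ranges overlapped, with Eomes above WT and Nkg7 below WT in the mutant libraries. Of 4189 genes tested in these cells, 19.5% had both mutant libraries above both WT libraries and 18.3% had both below. The rule genes chose the cells and were not among those tested, so their order by genotype is described only. Crtam stood at 439 and 473 CPM in mutant cells and at 289 and 375 CPM in WT cells. Slamf7, a receptor of the SLAM family, stood at 865 and 756 CPM in mutant cells and at 359.5 and 751 CPM in WT cells. Both genes were higher in the mutant libraries than in either WT library, by a narrow margin for Slamf7. Xcl1, a chemokine for cross-presenting dendritic cells, varied most, with 478 and 18.9 CPM in mutant cells and 108 and 269.98 CPM in WT cells. Of the 120 Xcl1 UMIs of mutant 1, 86 came from 1 cell. Ctla2a, an inhibitor of cysteine proteases, stood at 27.9 and 9.46 CPM in mutant cells and at 109 and 145 CPM in WT cells. Of the 44 Ctla2a UMIs of WT 2, 41 came from 1 cell.

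Cells at either side of the threshold were compared without a test. The 46 cells with 3 of the genes had Nr4a2 at 131 CPM. The 29 barcodes with 2 of them, which were not counted as Eomes Nkg7 cells, had Nr4a2 at 31.9 CPM, and the 2506 barcodes with none had it at 2.54 CPM. Il21 stood at 4.38 CPM with 3 genes, 19.9 CPM with 2, 103 CPM with 1 and 189 CPM with none. For Nr4a2 and Il21 the barcodes with 2 of the genes lay between those with 3 and those with none, but this did not hold for every gene. Sox4 stood at 206 CPM with 3 genes, 287 CPM with 2 and 19.9 CPM with none, and Ikzf2 at 587 CPM with 3, 777 CPM with 2 and 368 CPM with none. Malt1 stood at 78.9 CPM with 3 genes, 55.8 CPM with 2 and 633 CPM with none. A further 139 barcodes passed all limits except that on Epcam, Krt8 and Cd79a, and 16 of them (11.5%) had at least 3 of the 6 genes. By library this share was 6.67 and 0% in mutant and 16.1 and 13.3% in WT libraries. Among kept barcodes it was 2.36 and 4.21% in mutant and 6.07 and 5.21% in WT libraries.

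Depth and carry-over bear on a class defined by detected UMIs. Eomes Nkg7 cells had a median of 11846.5 and 13002.5 UMIs in the mutant libraries and 10490 and 8660.5 UMIs in the WT libraries, and other kept barcodes had 8488 and 9033 UMIs in mutant libraries and 8765 and 8615.5 UMIs in WT libraries. The summed UMIs of the Eomes Nkg7 cells were 250831 and 105751 in the mutant libraries, against 892819 and 303724 in the WT libraries. In 29 barcodes with Epcam or Krt8 and no Cd3 UMI, which should lack these genes, Slamf7 had 4 UMIs and the other 5 genes had 0, but their median depth was 1868 UMIs, against 10151 UMIs in Eomes Nkg7 cells. In 46 barcodes with Cd79a and no Cd3 UMI, with a median depth of 5508 UMIs, Slamf7 had 22 UMIs in 12 barcodes (26.1%), Ctla2a had 1 UMI and the other 4 genes had 0, and none of the 46 had 3 of the 6 genes. Between libraries, 62 of the deposited barcodes, 15 of the kept ones and 1 Eomes Nkg7 cell in WT 1 carried a barcode sequence seen in another library. Without the shared barcodes the genotypes differed by -2.22 percentage points in the share of Eomes Nkg7 cells given below, against -2.35 with them. Scrublet marked 31 of the 4803 barcodes as doublets, and 1 of these was an Eomes Nkg7 cell.

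Markers of CD4 T cells were present in these cells, and those of cytotoxic cells only in part. Cd4 UMIs were found in 105 of 135 Eomes Nkg7 cells (77.8%) and in 88.9% of other kept barcodes. By library, they were found in 85.0 and 87.5% of mutant and 81.3 and 62.5% of WT Eomes Nkg7 cells. In other kept barcodes these shares were 90.2 and 84.1% in mutant and 88.4 and 89.7% in WT libraries. The Cd4 level was 199, 322, 172 and 161 CPM in Eomes Nkg7 cells of mutant 1, mutant 2, WT 1 and WT 2, against 354, 441, 323 and 338 CPM in other kept barcodes. It was lower by the test described below (log2 fold change -0.83 ± 0.13, edgeR adjusted p = 5.36e-06). Prf1, which encodes the pore-forming protein perforin, was found in 42 Eomes Nkg7 cells (31.1%, 95% exact binomial interval 23.4 to 39.6%) and in 0.509% of other kept barcodes. Gzmk, which encodes granzyme K, was found in 13 Eomes Nkg7 cells (9.63%, interval 5.23 to 15.9%) and in 1 other barcode. These intervals cover counting error only. Gzmb, the main killing granzyme, was found in 0 of 135 Eomes Nkg7 cells and in 21 other barcodes (0.763%). A floor of 3 counts allows a share of up to 2.22% of Eomes Nkg7 cells with a UMI, and the exact interval reaches 2.70%. Neither value limits the share of cells that expresses the gene. Tbx21, which encodes T-bet, was found in 1 Eomes Nkg7 cell and in 0.945% of other kept barcodes, and Ifng in 6 Eomes Nkg7 cells (4.44%) and 7.59% of other kept barcodes. Prf1 and Gzmk UMIs were thus found in a larger share of Eomes Nkg7 cells than of other kept barcodes and Gzmb, Tbx21 and Ifng UMIs were not, and the cells are called by the genes of the rule.

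Markers of other cell types were mostly low, with exceptions in single genes and in 1 cell. The 17 natural killer and innate lymphoid genes summed to 0 to 8.96 CPM in 3 libraries and to 72.4 CPM in WT 2, where 1 cell held 19 of the 22 UMIs (Klrd1, Fcer1g, Cd7 and Kit) and also the 28 Ccl5 UMIs of that library. Tyrobp, Klrk1 and Ncr1 had 0 UMIs in all 135 cells. Cd8a had 0 UMIs and Cd8b1 was found in 13 cells, all in WT libraries, and the summed level of the pair was 0 and 0 CPM in mutant cells and 13.4 and 16.5 CPM in WT cells, against 5.83 and 2.97 CPM in mutant and 7.25 and 4.59 CPM in WT other barcodes. Either gene was found in 9 of 75 and 4 of 32 WT Eomes Nkg7 cells, against 5.25% and 3.78% of other kept barcodes of the WT libraries. Cd8b1 did not pass the filter on low counts of the test below, and of the 3 alternatives that tested it 1 called it higher, that with at least 2 of the 6 genes required. Sdc1, a surface proteoglycan best known from plasma cells, had 14 UMIs in 8 Eomes Nkg7 cells, 5 of them in mutant 1, and 0 UMIs in other kept barcodes, at least 74.7-fold higher against a floor of 3 UMIs over the class. The 7 plasma cell genes together summed to 39.5 to 83.7 CPM in Eomes Nkg7 cells and 54.1 to 69.0 CPM in other kept barcodes. Trdc, the delta receptor constant gene, had 379 UMIs in Eomes Nkg7 cells, or 244 CPM over all of them, against 401 CPM in other kept barcodes. It was lower by the test described below (log2 fold change -0.73, edgeR adjusted p = 3.8e-05). Of the gamma receptor constant genes, Tcrg-C1 had 7 UMIs and Tcrg-C2 had 9 UMIs in Eomes Nkg7 cells, each in 1 cell of WT 2, against 0 and 1 UMI in other kept barcodes. The part of these cells in the results was not tested. Foxp3, the factor of regulatory T cells, was found in 1 Eomes Nkg7 cell and in 5.49% of other kept barcodes. The transgenic receptor uses V beta 5, and that family gave 29 of 32 V beta UMIs in Eomes Nkg7 cells (90.6%) and 94.8% of V beta UMIs in other kept barcodes. The V alpha family of the transgene gave 11 of 18 V alpha UMIs in Eomes Nkg7 cells (61.1%) and 64.2% in other kept barcodes.

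The share of Eomes Nkg7 cells was lower in both mutant libraries than in either WT library, but the exact permutation test used for it cannot reach 0.05 with 2 libraries of each genotype. They made up 2.36% of kept barcodes in mutant 1 (95% exact interval 1.45 to 3.62%) and 4.21% in mutant 2 (1.84 to 8.13%). In the WT libraries they made up 6.07% in WT 1 (4.80 to 7.55%) and 5.21% in WT 2 (3.59 to 7.28%). The mean was 3.29 ± 1.31% in mutant libraries and 5.64 ± 0.605% in WT libraries (SD, n = 2 each), a difference of -2.35 percentage points (two-sided exact permutation test, p = 0.333, the smallest p this design allows). The interval of mutant 2 spanned both WT shares. With at least 4 of the 6 genes required, the shares were 1.77% and 3.68% in mutant libraries and 3.88% and 3.09% in WT libraries, so that the genotypes overlapped. With every barcode thinned to 3000 UMIs, leaving out 1 Eomes Nkg7 cell in mutant 1 and 1 in WT 1 and, of other kept barcodes, 30 and 22 in mutant libraries and 15 and 20 in WT libraries, the mean share was 1.99% in mutant and 4.20% in WT libraries.

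**Figure D2:**
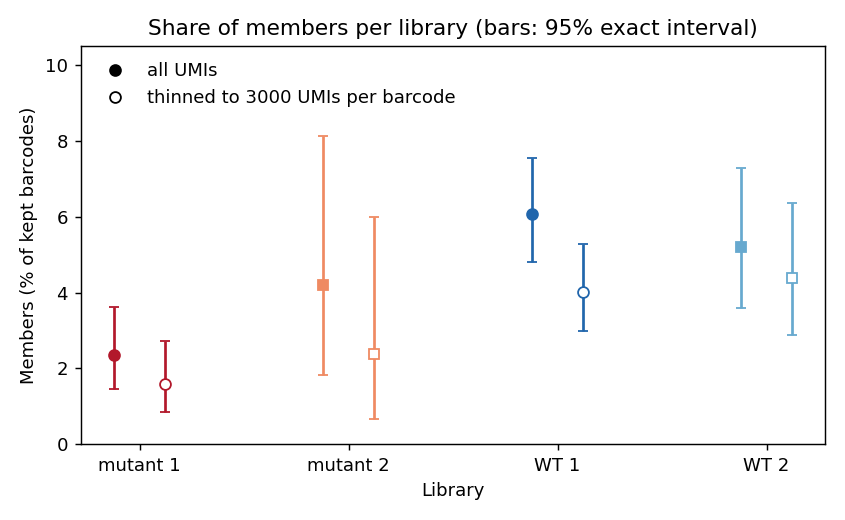
Share of Eomes Nkg7 cells among kept barcodes (%) in each library, with all UMIs (filled) and after thinning every barcode to 3000 UMIs (open); bars are 95% exact binomial intervals. Both mutant libraries lie below both WT libraries, and the wide interval of mutant 2 (8 cells) spans the WT shares.

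Apart from the 6 rule genes, Eomes Nkg7 cells differed from the other kept barcodes of the same libraries in many transcripts. UMIs were summed per library and class and tested with edgeR's quasi-likelihood test with the library as a block, and p-values were adjusted by Benjamini and Hochberg over all 8249 genes tested. Of these, 559 genes were higher in Eomes Nkg7 cells (6.78%) and 566 were lower (6.86%) at an adjusted p of 0.05, 13.6% in all. The total of 1125 calls was 663 without WT 1, 693 without WT 2 and 715 with DESeq2. The median log2 fold change of all tested genes was -0.01. The rule and gate genes were left out, but genes that accompany Eomes or Nkg7 in a cell are not independent of the choice of cells. The tests show differences that were large against the spread between libraries, and a call need not hold in each library. They do not show that the cells form a type of their own.

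Among the genes with the largest increases were perforin, the nuclear receptor gene Nr4a2 and the receptor gene Cd72. Prf1 (chr10:61297833-61304680, mm10) stood at 39.9, 56.7, 29.1 and 49.4 CPM in Eomes Nkg7 cells of mutant 1, mutant 2, WT 1 and WT 2, against 0.417, 0, 1.02 and 0.382 CPM in other kept barcodes, or 5.88 ± 0.48 (SE) as a log2 fold change (edgeR adjusted p = 1.52e-12). In every library its level in Eomes Nkg7 cells lay above that of every library's other barcodes.

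Nr4a2, an orphan nuclear receptor induced by T cell receptor signals, stood at 435, 265, 187 and 333 CPM in Eomes Nkg7 cells of mutant 1, mutant 2, WT 1 and WT 2, against 1.53 to 7.73 CPM in other kept barcodes (log2 fold change 6.46 ± 0.23, edgeR adjusted p = 2.32e-23). Cd72, a lectin-like receptor best known from B cells, stood at 75.7, 94.6, 124 and 165 CPM in Eomes Nkg7 cells and at 0 to 7.43 CPM in other kept barcodes (log2 fold change 5.15 ± 0.33). The 9 listed B cell genes together summed to 7.97 to 19.8 CPM in Eomes Nkg7 cells, against 15.5 to 26.2 CPM in other kept barcodes. Among them, Ms4a1 had 0 UMIs in Eomes Nkg7 cells. Cd79b had 9 UMIs there, or 5.79 CPM over all these cells, against 1.57 CPM over all other kept barcodes. Barcodes with a Cd79a UMI were left out of both classes, so a low B cell sum was set in part by the choice of barcodes. Plek, a protein kinase C substrate, stood at 35.8 to 108 CPM in Eomes Nkg7 cells and 1.30 to 7.22 CPM in other kept barcodes. The remaining named genes that were higher were Samd3, Kcnc1, Penk, Cd24a, St3gal6 and Gstm1, with log2 fold changes of 7.70, 6.61, 5.23, 4.73, 4.63 and 4.36. Kcnc1 encodes a voltage-gated potassium channel, Penk the precursor of enkephalin peptides, St3gal6 a sialyltransferase and Gstm1 a glutathione transferase. Several of these rested on few cells, since Penk UMIs came from 6 Eomes Nkg7 cells and the 8 Kcnc1 UMIs of mutant 2 from 1 cell.

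The genes with the largest decreases included the 2 cytokines that Tfh cells supply to B cells. Il21 stood at 0, 0, 6.72 and 3.29 CPM in Eomes Nkg7 cells of mutant 1, mutant 2, WT 1 and WT 2, against 237, 179.6, 136 and 191 CPM in other kept barcodes (log2 fold change -5.19 ± 0.32, edgeR adjusted p = 9.98e-16). It was found in 4 of 135 Eomes Nkg7 cells and in 47.4% of other kept barcodes. Il4 had 1 UMI in all Eomes Nkg7 cells, in WT 1, and stood at 106, 92.2, 57.2 and 78.2 CPM in other kept barcodes (log2 fold change -6.70 ± 0.53, edgeR adjusted p = 4.98e-13). Sostdc1, a secreted antagonist of BMP and Wnt signals that Tfh cells make, likewise had 1 UMI, in WT 1, against 68.5 to 233 CPM in other kept barcodes. Tiam1, Csf1, Rora and Fam20a had 0 UMIs in all Eomes Nkg7 cells. Against a floor of 3 UMIs over the class, Tiam1, an activator of the GTPase Rac, was at least 24.1-fold lower, and Csf1, a growth factor of macrophages, at least 18.9-fold lower. Rora, a nuclear receptor of type 2 and innate lymphocytes, was at least 13.2-fold lower and Fam20a at least 10.8-fold lower. Vim, Cybb, Angptl2, Nav2 and Gpm6b completed the 12 named genes that were lower.

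**Figure D3:**
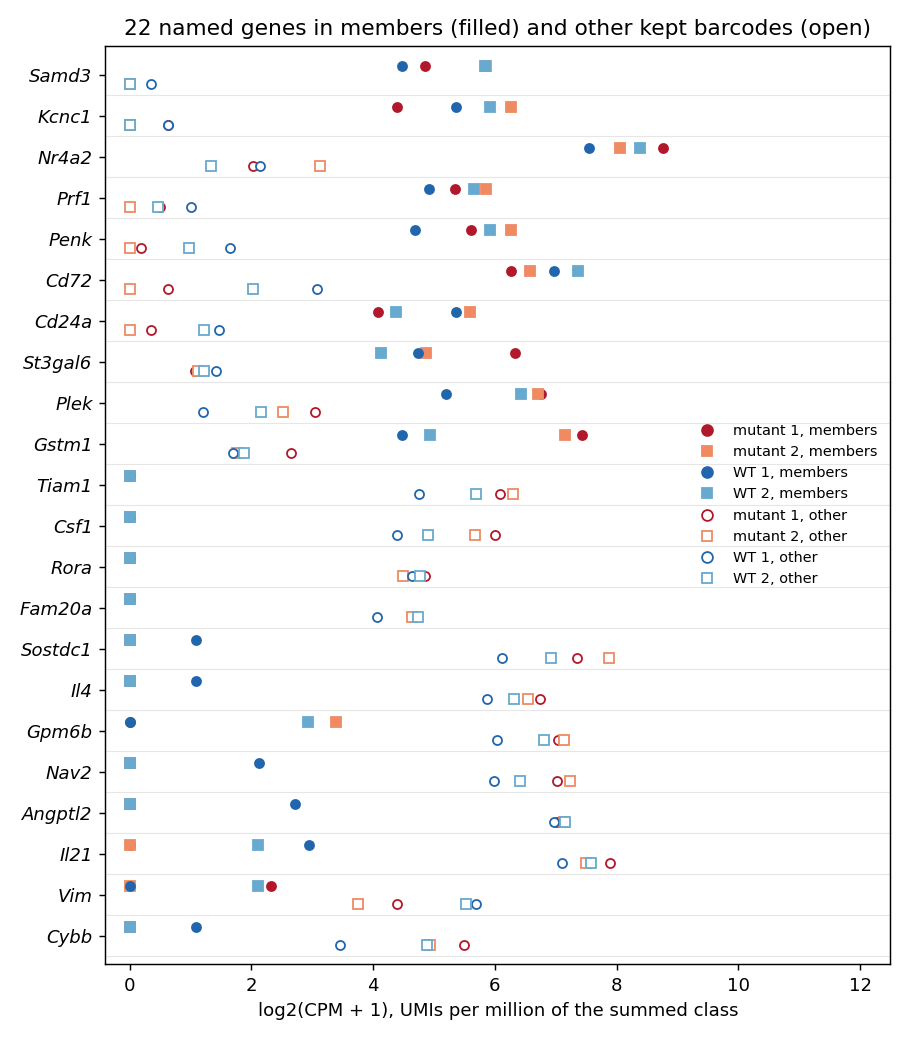
Levels of 22 named genes as log2(CPM + 1) per library, in Eomes Nkg7 cells (members, filled, upper point of each row) and other kept barcodes (other, open, lower point); circles are replicate 1, squares replicate 2, and points at 0 overlap. The 10 genes at the top lie to the right in Eomes Nkg7 cells of all 4 libraries and the 12 at the bottom to the left.

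Most Tfh genes were lower in Eomes Nkg7 cells, while the defining pair Bcl6 and Cxcr5 did not pass the test. Of 18 listed Tfh genes tested, 14 were lower, 1 was higher and 3 did not pass, with a median log2 fold change of -1.26. Cd40lg, the ligand with which helper cells activate B cells, stood at 0 to 9.46 CPM in Eomes Nkg7 cells and 58.4 to 132 CPM in other kept barcodes (log2 fold change -4.58 ± 0.39). Pdcd1, encoding the inhibitory receptor PD-1, stood at 37.8 to 115 CPM in Eomes Nkg7 cells and 168 to 245 CPM in other kept barcodes (log2 fold change -1.28 ± 0.17), and Icos and Ascl2 were lower too, with log2 fold changes of -1.13 and -3.28. Bcl6, the lineage factor of Tfh cells, stood at 75.7, 85.1, 53.8 and 92.2 CPM in Eomes Nkg7 cells, against 121, 90.4, 66.0 and 99.4 CPM in other kept barcodes (log2 fold change -0.29 ± 0.18, edgeR adjusted p = 0.337). Cxcr5, the receptor that guides cells into follicles, stood at 112, 132, 73.9 and 65.8 CPM in Eomes Nkg7 cells, against 105, 99.9, 61.1 and 76.5 CPM in other kept barcodes (log2 fold change 0.16 ± 0.17, edgeR adjusted p = 0.663). Cxcr5 UMIs were found in 54.8% of Eomes Nkg7 cells and 36.5% of other kept barcodes, which had a lower median depth. In WT 2 these shares were 37.5% and 36.8%. Sh2d1a, the SLAM adaptor that Tfh cells need for contact with B cells, was the gene that was higher, at 518, 349.9, 391 and 395 CPM in Eomes Nkg7 cells, against 269, 222, 309 and 288 CPM in other kept barcodes (log2 fold change 0.59 ± 0.12, edgeR adjusted p = 0.000448).

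Genes of cytotoxic granules and killing were split. Of 13 tested, 4 were higher (Prf1, Ctsw, Fasl and Serpinb6b), 2 were lower (Srgn and Stx11) and 7 did not pass, with a median log2 fold change of 0.07. The call of Srgn was lost without a library block, and the others held wherever they were tested, which for Fasl was 9 of 14 alternatives. Ctsw, which encodes a cathepsin of killer cells, stood at 23.9, 9.46, 57.1 and 79.02 CPM in Eomes Nkg7 cells of mutant 1, mutant 2, WT 1 and WT 2, against 1.53, 4.16, 12.7 and 12.05 CPM in other kept barcodes (log2 fold change 2.52 ± 0.31, edgeR adjusted p = 4.7e-08). Fasl, the ligand of the death receptor Fas, stood at 7.97 to 32.9 CPM in Eomes Nkg7 cells and 3.33 to 5.57 CPM in other kept barcodes (log2 fold change 2.21 ± 0.42). Serpinb6b, a serpin protease inhibitor, was higher by 1.68 on the log2 scale. Srgn, the proteoglycan core of granules, and Stx11, a syntaxin needed for granule release, were lower, with log2 fold changes of -0.57 and -2.34. Of 7 SLAM family genes tested, Cd48, Ly9 and the adaptor Sh2d1a were higher and Slamf1 was lower, and Slamf6 stood at 411 to 579 CPM in Eomes Nkg7 cells and 473 to 520.5 CPM in other kept barcodes.

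Transcription factors of effector helper cells fell more often than they rose. Of 12 tested, 7 were lower, 3 were higher and 2 did not pass, and 8 of the 10 calls, all but those of Runx3 and Batf, held wherever they were tested, which for Zeb2 was 11 of 14 alternatives. Zeb2, a repressor found in terminal effector T cells, stood at 67.8, 0, 16.8 and 49.4 CPM in Eomes Nkg7 cells of mutant 1, mutant 2, WT 1 and WT 2, against 1.34 to 8.89 CPM in other kept barcodes (log2 fold change 3.52 ± 0.42). Irf8 was higher by 2.05 ± 0.29 and Runx3, a factor of CD8 and cytotoxic CD4 T cells, by 0.81 ± 0.24 on the log2 scale, and Runx3 in mutant 2 (9.46 CPM) was below the other barcodes of that library (25.6 CPM). Zbtb7b, which encodes ThPOK, the factor that keeps CD4 T cells in the helper lineage, stood at 3.99, 18.9, 16.8 and 6.58 CPM in Eomes Nkg7 cells, against 45.5 to 50.4 CPM in other kept barcodes (log2 fold change -1.87 ± 0.31, edgeR adjusted p = 1.78e-05). Maf, a factor of Tfh and IL-10 producing cells, was lower, with a log2 fold change of -1.29, and Id2, Batf, Bhlhe40, Nfil3 and Rora were lower too. Gata3, the factor of type 2 helper cells, stood at 0 to 16.5 CPM in Eomes Nkg7 cells and 60.7 to 78.8 CPM in other kept barcodes (log2 fold change -2.52 ± 0.30).

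Genes induced early after T cell receptor signals were higher in part. Of 15 tested, 7 were higher (Nr4a2, Myc, Nr4a3, Tnfrsf9, Egr2, Nr4a1 and Rel), 2 were lower (Tnfrsf4 and Spry1) and 6 did not pass. The calls of Myc, Nr4a1, Rel and Spry1 were lost in some alternatives, for Myc without WT 1 (adjusted p = 0.144). Tnfrsf9, the co-stimulatory receptor 4-1BB, stood at 263, 303, 273 and 296 CPM in Eomes Nkg7 cells of mutant 1, mutant 2, WT 1 and WT 2, against 97.2, 76.7, 152 and 109 CPM in other kept barcodes (log2 fold change 1.31 ± 0.14, edgeR adjusted p = 2.99e-09). Of 19 immediate-early and stress genes tested, 9 were higher and 2 lower, and 5 of these calls held in every alternative run. These genes can also be induced while tissue is dissociated, and that part was not tested. Ikzf2, which encodes Helios, a factor of regulatory T cells and of strongly stimulated T cells, stood at 881, 1144, 609 and 1403 CPM in Eomes Nkg7 cells, against 412, 329.5, 356 and 381 CPM in other kept barcodes (log2 fold change 1.36 ± 0.13). With Tnfrsf9 it was 1 of 2 genes of the regulatory T cell list that were higher, while 5 of the 9 tested were lower, among them Ctla4, at 18.9 to 55.8 CPM in Eomes Nkg7 cells and 195 to 318 CPM in other kept barcodes (log2 fold change -2.70 ± 0.19).

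Homing genes and genes of resting T cells moved in both directions. Of 12 listed naive or memory genes tested, 4 were higher (Dapl1, Klf2, Bach2 and Cd27), 5 were lower (Il7r, Ccr7, S1pr1, Tcf7 and Satb1) and 3 did not pass. Of these 9 calls, those of Dapl1 and Tcf7 held wherever they were tested, which for Dapl1 was 12 of 14 alternatives. Ccr7, the receptor that guides naive T cells into lymph nodes, stood at 3.99, 18.9, 37.0 and 19.8 CPM in Eomes Nkg7 cells of mutant 1, mutant 2, WT 1 and WT 2, against 34.6, 46.4, 88.0 and 66.0 CPM in other kept barcodes (log2 fold change -1.45 ± 0.25). Klf2, a factor that promotes S1pr1, stood at 43.9, 312, 221 and 198 CPM in Eomes Nkg7 cells, against 34.2, 72.6, 141 and 89.3 CPM in other kept barcodes (log2 fold change 1.02 ± 0.17). S1pr1 itself was among the genes that were lower, and Il7r, the receptor for the survival cytokine IL-7, had 2 UMIs in all 135 cells. Of the 11 chemokine and homing genes tested, Cxcr4, Itga4 and Itgb1 were higher, and Cxcr6, Ccr7, S1pr2, Gpr183, S1pr1, Itgb7 and Ccr9 were lower. The calls of the 3 genes that were higher and of Gpr183 held in every alternative run, and those of the other genes did not.

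None of the 7 cytokine genes tested was higher, and 6 were lower: Il4, Il21, Cd40lg, Tnfsf11, Tnf and Ltb, of which all but Tnf held in every alternative run. Of 11 interferon-stimulated genes tested, 7 were lower and none was higher, with a median log2 fold change of -1.32. Ifi27l2a stood at 207, 142, 355 and 115 CPM in Eomes Nkg7 cells of mutant 1, mutant 2, WT 1 and WT 2, against 1278, 588, 1360.2 and 522 CPM in other kept barcodes (log2 fold change -2.16 ± 0.13, edgeR adjusted p = 4.4e-16). Of 14 glycolysis genes tested, 7 were lower and none was higher, with a median log2 fold change of -0.40 over the 14. The smallest changes among the 7 were -0.39 for Gapdh and -0.40 for Pkm. The largest was that of Pfkl, at 36.1 CPM over all Eomes Nkg7 cells and 69.5 CPM over all other kept barcodes. Each of these 7 calls was lost in some alternative. Cycling genes gave 5 that were higher (Cdc20, Stmn1, Mcm3, Mcm5 and Mcm6) and 1 that was lower (Mki67) of 14 tested. Of these, Stmn1 alone held in every alternative run. Mki67 UMIs were found in 4 Eomes Nkg7 cells, and its call was lost, among others, without a library block, without mutant 1, without WT 1 or without WT 2.

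**Figure D4:**
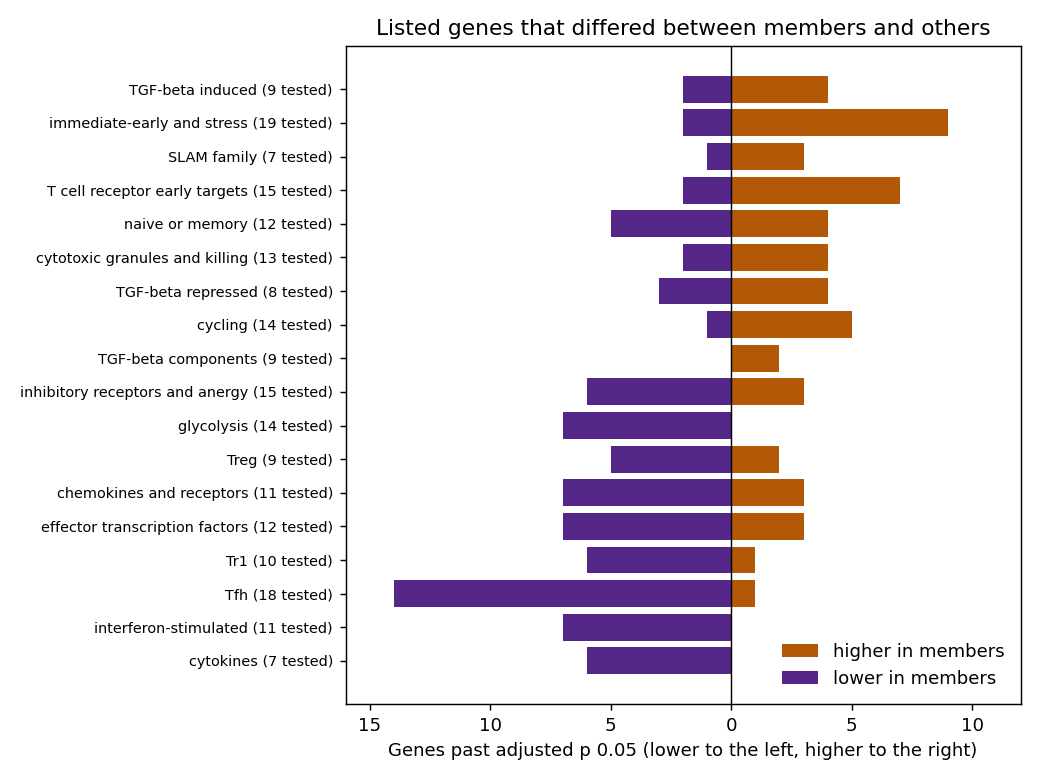
Number of genes past an adjusted p of 0.05 in each gene list with at least 5 genes tested, lower (left) and higher (right) in Eomes Nkg7 cells (members) than in other kept barcodes (others). Tfh genes (14 of 18 lower) and cytokines (6 of 7 lower) fell most often, and early T cell receptor targets (7 of 15) and immediate-early genes (9 of 19) were more often higher than lower.

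Genes of the TGF-beta pathway were described next because Tgfbr1 carried the mutation. Tgfbr1 itself stood at 39.9 and 0 CPM in mutant Eomes Nkg7 cells and at 24.6 and 26.3 CPM in WT ones, and at 26.5 and 19.0 CPM in mutant and 31.0 and 25.8 CPM in WT other barcodes. The change is a single amino acid, so its level does not check the genotype labels. Between Eomes Nkg7 cells and other kept barcodes, 2 of 9 pathway components tested were higher, Tgfbr3, a co-receptor (log2 fold change 1.30 ± 0.25), and the ligand Tgfb1 (0.49 ± 0.14). Of 9 genes induced by TGF-beta that were tested, Smad7, Tgif1, Skil and Pmepa1 were higher and Ahr and Ski were lower. Smad7, a feedback inhibitor of the receptor, stood at 104, 37.8, 99.7 and 85.6 CPM in Eomes Nkg7 cells of mutant 1, mutant 2, WT 1 and WT 2, against 15.4, 26.8, 65.8 and 44.4 CPM in other kept barcodes (log2 fold change 1.13 ± 0.24, edgeR adjusted p = 0.000557). The calls of Pmepa1 and Skil were the weakest of these, with log2 fold changes of 0.54 and 0.67, and were lost in several alternatives, among them those without WT 2 and without a library block. Of 8 TGF-beta repressed genes tested, 4 were higher and 3 lower.

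Within the Eomes Nkg7 cells, 1 gene passed the test by genotype. Of 4189 genes tested with edgeR over the 4 sums, 1 was higher in mutant cells (0.0239%) and 0 were lower at an adjusted p of 0.05, 264 had an unadjusted p under 0.05 (6.30%), and DESeq2 called 2. The number of calls was 21 without mutant 1, 14 without mutant 2, 3 without WT 1 and 5 without WT 2, and Gstm1 was among them each time. Counts were simulated at these depths with the same setting of spread for all genes and no clumping of UMIs in single cells. On them the test recovered 92% of 4-fold and 32% of 2-fold changes, which may be too high for genes found in few cells. The gene was Gstm1, at 171 and 142 CPM in mutant cells and 21.3 and 29.6 CPM in WT cells (log2 fold change 2.72 ± 0.35, edgeR adjusted p = 0.00927, chr3:108012255-108017973 in mm10). It rested on few cells, since 1 cell held 14 of the 15 UMIs of mutant 2 and 1 cell held 21 of the 43 UMIs of mutant 1. Without the highest cell of each library the levels were 98.4 and 11.2 CPM in mutant cells and 19.4 and 17.3 CPM in WT cells, which overlap. The share of cells with a Gstm1 UMI was 25.0% in each mutant library and 18.7 and 18.8% in the WT libraries. In other kept barcodes the log2 fold change of Gstm1 had the same sign (0.87 ± 0.43, edgeR adjusted p = 0.445). Over all kept barcodes, which include the Eomes Nkg7 cells, Gstm1 was higher in mutant (1.45 ± 0.28, edgeR adjusted p = 0.0198). Its effect did not differ between the classes past the threshold (log2 difference 1.88 ± 0.72, edgeR adjusted p = 0.885).

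Prf1 stood at 39.9 and 56.7 CPM in mutant and 29.1 and 49.4 CPM in WT Eomes Nkg7 cells (log2 fold change 0.32 ± 0.49, edgeR adjusted p = 0.926). Of 6 cytotoxic genes tested by genotype within the cells, none passed. In other kept barcodes 1 of 13 was called, Ctsw, which was lower in mutant. Over all kept barcodes 1 of 14 was called, again Ctsw, lower in mutant. Of 19 immediate-early and stress genes tested within the Eomes Nkg7 cells, 17 had a negative and 2 a positive log2 fold change. Their median was -0.57 and none passed, while the median of all genes tested was -0.01. Other kept barcodes gave a like split, with 18 of 20 of these genes negative, a median of -0.41 and 1 called lower. The TGF-beta induced genes also gave no call in these cells. Pmepa1, an inhibitor of Smad signalling, stood at 63.8 and 28.4 CPM in mutant and 123 and 132 CPM in WT Eomes Nkg7 cells (log2 fold change -1.29 ± 0.38, edgeR adjusted p = 0.782). Smad7 stood at 104 and 37.8 CPM in mutant and 99.7 and 85.6 CPM in WT Eomes Nkg7 cells (-0.23 ± 0.38, edgeR adjusted p = 0.936), with values of -1.46 without mutant 1 and 0.14 without mutant 2. In other kept barcodes both were called, with Pmepa1 (log2 fold change -1.18 ± 0.16) and Smad7 (-1.61 ± 0.24) lower in mutant at edgeR adjusted p-values of 0.00682 and 0.0145, where 0.662% of 10582 genes tested were called in all. The difference between the effects in both classes did not pass for Smad7 (log2 difference 1.39 ± 0.43, edgeR adjusted p = 0.51) or for Pmepa1 (-0.12 ± 0.43, edgeR adjusted p = 1), and for Smad7 it turned with the library left out: it was 2.02 without mutant 2 (edgeR adjusted p = 0.00774) and -0.38, not past the threshold, without mutant 1. On counts simulated in the same way, without clumping of UMIs in single cells, this test recovered 43% of 4-fold and 8% of 2-fold changes.

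Over all kept barcodes, where no cell was chosen by its expression of them, 2 of the 6 rule genes were lower in the mutant libraries. In that test 1.35% of 10684 genes were called. Nkg7 stood at 22.1 and 38.1 CPM in mutant and 85.2 and 68.5 CPM in WT libraries (log2 fold change -1.54 ± 0.20, edgeR adjusted p = 0.00115). Ctla2a stood at 1.88 and 1.12 CPM in mutant and 9.69 and 8.68 CPM in WT libraries (-2.44 ± 0.36, edgeR adjusted p = 0.0038). Both calls held in every alternative run. Eomes stood at 36.0 and 59.9 CPM in mutant and 51.7 and 47.4 CPM in WT libraries (-0.19 ± 0.18, edgeR adjusted p = 0.693), and Crtam, Slamf7 and Xcl1 did not pass either, with log2 fold changes of -0.29, 0.14 and 0.06. These levels combine how many cells hold the transcript and how much each holds. For Ctla2a in WT 2, 1 Eomes Nkg7 cell held 41 of the 44 UMIs of these cells, and other kept barcodes held 4. No fit left out that cell alone. Outside the Eomes Nkg7 cells, Nkg7 was found in 1.45% and 0.549% of other kept barcodes in mutant libraries and in 6.46% and 3.09% in WT libraries.

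The effect of genotype differed between Eomes Nkg7 cells and other kept barcodes for 5 of 8928 genes tested (0.056%), of which 4 are described. Sox4, a transcription factor induced by TGF-beta in T cells, was at 534 and 179.7 CPM in mutant and 292 and 425 CPM in WT Eomes Nkg7 cells, against 8.19 and 3.57 CPM in mutant and 45.1 and 29.4 CPM in WT other barcodes, a difference of log2 effects of 2.76 ± 0.34 (edgeR adjusted p = 2.41e-08). It was lower in mutant other barcodes (log2 fold change -2.43 ± 0.29, edgeR adjusted p = 0.00336), while within Eomes Nkg7 cells it did not pass. Tnfsf4, the ligand of OX40, was at 120 and 75.6 CPM in mutant and 77.3 and 42.8 CPM in WT Eomes Nkg7 cells, against 25.3 and 37.5 CPM in mutant and 83.1 and 62.2 CPM in WT other barcodes (2.04 ± 0.40). Capg, an actin-capping protein, was at 120 and 37.8 CPM in mutant and 37.0 and 56.0 CPM in WT Eomes Nkg7 cells, against 71.9 and 53.5 CPM in mutant and 132 and 105 CPM in WT other barcodes (1.95 ± 0.42). In other barcodes both were lower in mutant, with edgeR adjusted p-values of 0.00965 for Tnfsf4 and 0.0428 for Capg, the second 0.149 without WT 1. BC018473 had 0 UMIs in both mutant libraries' Eomes Nkg7 cells and 9.0 and 39.5 CPM in WT ones, against 579 and 279 CPM in mutant and 123 and 239 CPM in WT other barcodes. Without WT 1 none of the 5 passed (206 genes had an unadjusted p under 0.05), and without mutant 1 none of them did; 19 genes passed without mutant 2 and 3 without WT 2. Limiting the other kept barcodes to those with none of the 6 genes gave 6 calls, among them all 5.

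**Figure D5:**
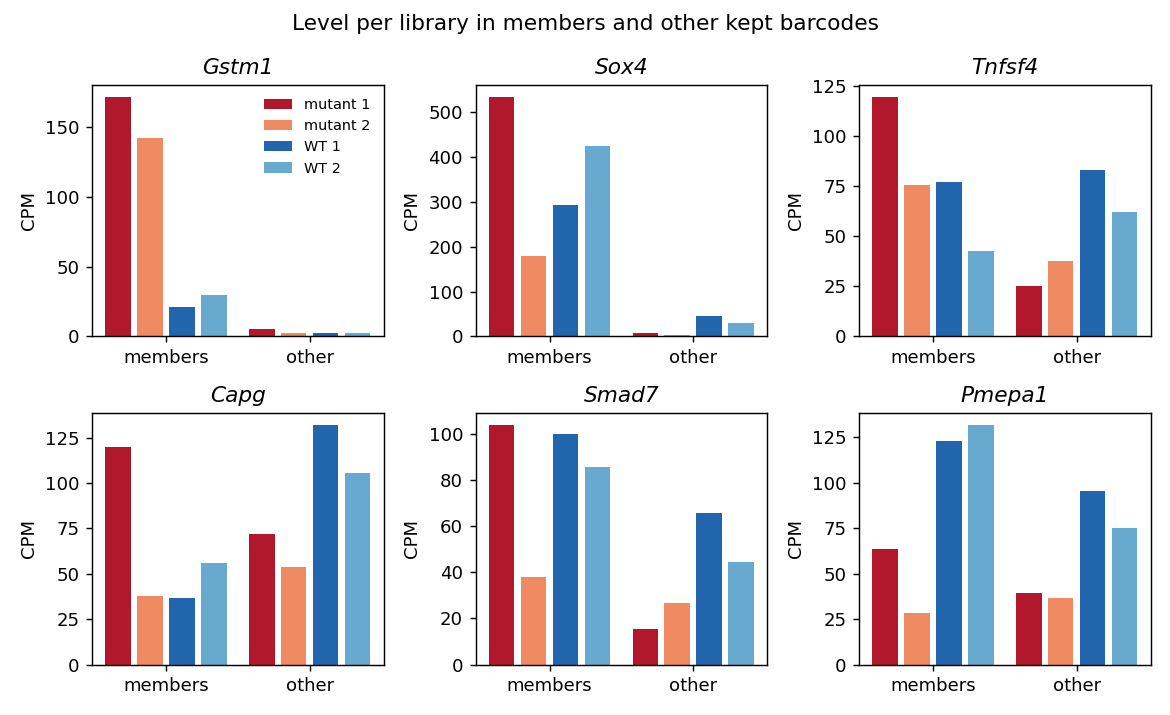
CPM of 6 genes per library (bars) in Eomes Nkg7 cells (members, left) and other kept barcodes (other, right), with mutant libraries left of WT libraries. Gstm1 was higher in mutant Eomes Nkg7 cells, but the genotypes overlapped once the highest cell of each library was left out. Sox4, Tnfsf4, Capg, Smad7 and Pmepa1 were lower in mutant other barcodes, for Capg not past the threshold without WT 1.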

How the data were processed

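The deposited files are sparse matrices of UMI counts per gene and barcode, which the submitters' processing notes tie to the tools Cell Ranger 6.0.0 and Seurat 4 and the build mm10. The authors' normalized values were not used. Libraries held 7451355 and 1786852 (mutant) and 11657859 and 5532953 (WT) UMIs in kept barcodes. Counts of Eomes Nkg7 cells and of other kept barcodes were summed per library and tested with edgeR 4.0.16 (quasi-likelihood, TMM, filterByExpr, limma 3.58.1) in R 4.3.3, with DESeq2 1.42.0 as an alternative. Standard errors are the log2 fold change over the root of F. Scrublet in scanpy 1.11.5 marked doublets, which were kept in the main fit. CPM are unscaled, and fold changes use TMM-scaled sums. Intervals are Clopper-Pearson. Coordinates come from GENCODE vM21 (GRCm38), and promoter sequences from RefSeq.

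Named genes for the comparison with other barcodes were the 12 largest changes in each direction past an adjusted p of 0.05, with the same sign in 4 libraries and at least 20 CPM in the higher class, leaving out rule, receptor segment, mitochondrial, ribosomal and predicted genes. By genotype, the 10 largest in each direction past the threshold were to be named. The cells, gene lists and tests were chosen with earlier results of these data known, and genes shown only as list members or for the mutated pathway were picked from those lists. Some genes that entered the tests are not reported here, and they were left out of the named genes and lists. Test code was checked on simulated data. Replicate numbers did not pair the samples. The antibody tag counts and the 2 WT hashtag samples entered no comparison.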

Additional observations from a re-analysis of the deposited data

Results flagged for a closer look

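The effect of genotype in Eomes Nkg7 cells minus that in other kept barcodes passed the interaction test for 5 genes, of which 4 are given here, with log2 differences of 2.76 for Sox4, 2.04 for Tnfsf4, 1.95 for Capg and -10.48 for BC018473. The last value is set by 0 UMIs in the mutant Eomes Nkg7 cells and is no estimate of size. In mutant 2 these cells numbered 8, and 11 of their 19 Sox4 UMIs came from 1 cell.

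Antibody tag UMIs, which entered no comparison, numbered 37707 in WT 1 and 20474 in WT 2, and the mutant matrices hold no tag rows. By leading tag (301, 302 or 303, at least 10 UMIs and 3 times the next tag), Eomes Nkg7 cells made up 7.62, 6.10 and 4.72% of kept barcodes in WT 1 and 6.93, 1.92 and 4.98% in WT 2. The 95% exact intervals of the 3 shares overlapped within each library. What the tags stand for is not given in the sources used here.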

How the results depend on the processing

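All 305 values of 22 named genes under the alternatives run kept their direction and stayed past the threshold. No alternative left out cells by their UMIs of a single gene. Without the highest cell of each library, Penk stood at 0 CPM in Eomes Nkg7 cells of mutant 1, mutant 2 and WT 1, and Kcnc1 at 0 CPM in mutant 2. Prf1 and Nr4a2 still stood at 26.0 and 157 CPM or more in every library. Of 114 list genes called between Eomes Nkg7 cells and other barcodes, 66 kept their call in every alternative in which they were tested and none of the 114 reversed past the threshold. The number of genes that differed between Eomes Nkg7 cells and other barcodes was 1125, against 715 with DESeq2 and 663 to 1105 with 1 library left out (663 without WT 1, 693 without WT 2). The difference in share was -2.35 percentage points, and -0.76 with at least 4 of 6 genes; with 1 library left out it ran from -3.28 to -1.43. By genotype within Eomes Nkg7 cells the 1 call became 10 without a filter on low counts, 2 with DESeq2, 0 with at least 4 of 6 genes (159 genes at an unadjusted p under 0.05) and 3 to 21 with 1 library left out. The difference between the classes gave 5 calls, 2 with at least 2 of 6 genes, and 0 to 19 with 1 library left out. Genotype gave 70 calls in other kept barcodes (46 to 504 with 1 library left out) and 144 over all kept barcodes (422 without a filter, 68 with DESeq2, 48 to 465 with 1 library left out). Where a library left out leaves 1 in a genotype, that library is assumed to vary like the others. Same-numbered libraries did not deviate together (correlations 0.0504 in Eomes Nkg7 cells and 0.00333 in others), so the replicate block pairs numbers only; it gave 12 calls within Eomes Nkg7 cells, 137 in others and 233 over all kept barcodes. The causes of these changes were not tested. With 8 Eomes Nkg7 cells in mutant 2, depth limits every genotype value given for them.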
